A study of Mus musculus with 2 samples.

Results

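Transcript clusters that the array design placed on the genome but that carry no gene symbol, and whose signal lay above background, are described here. A transcript cluster is the set of probes that the design assigns to 1 transcribed region, and each fills 1 row of the table. The rule took every row with no symbol in the platform's annotation whose signal was over 61.34 in the WT sample or over 58.22 in the MHC class II KO sample, and left out rows numbered on chromosomes X and Y. It found 10323 members among 31531 rows without symbol outside X and Y, or 32.7%, in a table of 65956 rows of which 33206 had no symbol. The rule used the signal of the same arrays that are compared below, so all differences of the members are a description and none was tested.

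The study asked how gene expression of Vγ6 γδ T cells differs where MHC class II is missing. Antibody-stained cells were sorted on a flow cytometer out of the thymus of C57BL/6 mice aged 0 days, either WT or MHC class II KO. Each genotype had 1 array, so there was no spread between replicates and every fold below compares these 2 arrays and not the genotypes. The labels name neither the disrupted class II gene nor the sex of the mice, and do not say whether animals were pooled.

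Vγ6 γδ T cells arise in the fetal thymus in a single early wave, leave it already committed to making interleukin 17, and settle in tissues such as skin, uterus and lung. MHC class II presents peptides to CD4 T cells, and γδ T cells do not need it to recognise antigen. Whole-transcript arrays place probes along the full length of transcripts and on transcribed regions outside annotated genes, so a row without symbol can be a non-coding RNA, an unannotated exon, an intron or a stretch before or after a gene.

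The labelled cell type was checked on its markers. Of 11 markers of γδ T cells that make interleukin 17, 10 had a row, and all 10 were above background. They included the CD3 chains, Tcrg-V6, Sox13, Maf, Zbtb16, Blk, Il17a and Il23r. The log2 of their summed signal, which is led by the brightest rows, was 18.69 in the WT sample and 18.74 in the MHC class II KO sample. Some markers differed by more than that sum, in both directions. Il17a, the cytokine itself, had 1844 and 622 (log2 difference, MHC class II KO minus WT, -1.57), and Tcrg-V6 had 6373 and 5132 (-0.31). Zbtb16 and Blk differed by 0.47 each and Cd3g by 0.30. Of the 10 markers, 6 were above 0. Of the 7 double positive thymocyte markers with a row, 6 were above background and all 6 were higher in the MHC class II KO sample. The log2 of the summed signal of this list was 13.62 in the WT sample and 14.93 in the MHC class II KO sample. None of 3 B cell markers was above background, against 2 of 4 myeloid markers (Lyz2 and Cd68) and 2 of 4 thymic epithelial markers (Epcam and Krt8, both in the WT sample alone). In bulk RNA, fewer cells of a type and less RNA per cell cannot be told apart.

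The files give no sequence and no coordinates for the members. Their row IDs hold a chromosome and a number, and the rows with symbols showed what the number means. On each of chromosomes 1 to 19 the numbers ran up the chromosome once and then again. In the first run 99.6% of 8498 gene rows with a known strand lay on the plus strand, and in the second run 99.3% of 8449 lay on the minus strand. Within a run, the row number and the RefSeq start of the gene had a Spearman correlation that was 0.976 at the lowest. A member numbered after a plus strand gene therefore starts inside or downstream of it, and a member numbered after a minus strand gene starts inside or upstream of it.

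Beside 2 genes whose following members differed in the gene's direction, 1 with lower and 1 with higher MHC class II KO signal, the sequence upstream of the gene start is shown as that of the gene these members follow. Whether the members are transcribed from that start was not tested. Each run holds the 250 bases before the start in the RefSeq table of build GRCm38.p6, read 5′ to 3′ on the gene's strand. Capitals mark matches on either strand to 7 short motifs, which were chosen with the members' values known: TGTGGT (the RUNX motif), AGGTCA (the nuclear receptor half-site), TGANTCA (the AP-1 site), TGACGTCA (the cAMP response element), CCGGAA (the ETS motif), CTTTGA (the TCF/LEF motif) plus AGATAA (the GATA motif).
Ell2, plus strand, chr13:75707234-75707483: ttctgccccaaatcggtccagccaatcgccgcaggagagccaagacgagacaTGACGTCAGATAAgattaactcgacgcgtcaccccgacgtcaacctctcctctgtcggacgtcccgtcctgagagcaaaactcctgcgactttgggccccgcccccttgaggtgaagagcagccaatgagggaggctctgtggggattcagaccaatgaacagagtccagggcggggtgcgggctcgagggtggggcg
Bcl11b, minus strand, chr12:108003415-108003664: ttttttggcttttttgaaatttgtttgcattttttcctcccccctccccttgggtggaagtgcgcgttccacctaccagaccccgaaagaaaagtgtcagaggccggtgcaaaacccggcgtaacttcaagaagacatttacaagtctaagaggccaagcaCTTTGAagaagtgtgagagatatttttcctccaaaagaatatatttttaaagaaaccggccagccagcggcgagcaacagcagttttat
The Ell2 run held 1 match to TGACGTCA, which 1.55% of 32851 promoters of this length held, and 1 match to AGATAA, held by 9.99%, with the matches overlapping by 1 base. The Bcl11b run held 1 match to CTTTGA, held by 13.8% of promoters. Among the other motifs, TGTGGT was held by 14% of promoters, the motif AGGTCA likewise by 14%, the motif TGANTCA by 6.75% and the motif CCGGAA by 12%. The same windows of Lef1 and Nrip1, genes described below, held none of the 7. A match is a string of letters and no measured binding site.

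Signal and its spread were examined first. Above background on both arrays were 9108 members, with 555 above it in the WT sample alone and 660 in the MHC class II KO sample alone. Members were dimmer than rows with 1 gene symbol. Their median signal, a linear intensity with no unit, was 177 in the WT sample and 178 in the MHC class II KO sample, against 360 and 390 for 13870 rows with 1 symbol chosen by the same background. The brightest 5 members, TC0200000731.mm.1, TC0200002613.mm.1, TC0800002296.mm.1, TC1400000823.mm.1 and TC1700001823.mm.1, had WT signals from 368956 to 411086 and differed between arrays by log2 -0.13 to 0.22. Just inside the rule lay TC1600001454.mm.1 at 61.38 in the WT sample and TC1400000545.mm.1 at 58.228 in the MHC class II KO sample, and just outside it lay TC0800000223.mm.1 at 61.31 and TC1400000498.mm.1 at 58.222.

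Taken over all signals, members were past 2-fold more often than rows with 1 symbol, in both directions. At least 2-fold higher in the MHC class II KO sample were 181 members (1.75%), where 1.24 percent of all 25251 rows above background passed that fold. Lower by 2-fold or more were 174 members (1.69%), where 1.36 percent of all rows passed. Rows with 1 symbol passed in 0.822% and 1.17% of cases, or 0.803% and 0.685% with rows of identical values counted once. The order was not the same at every mean log2 signal, with all rows counted. For lower rows it turned from 4.9 to 6 (2.27% of members, 6.28% of rows with 1 symbol) and from 7 to 8 (1.82%, 2.6%). For higher rows it turned from 10 to 13 (1.08%, 1.11%) and above 13 (0.258%, 0.305%). At 1.5-fold, 747 members (7.24%) were higher and 897 (8.69%) lower, beside 5.43 and 5.53 percent of all rows. At 3-fold, 26 members (0.252%) were higher and 27 (0.262%) lower, beside 0.162 and 0.428 percent of all rows. Of rows with 1 symbol, 12 (0.0865%) were higher and 79 (0.57%) lower, so that only for lower rows was the share of members the smaller. With identical rows counted once, that order turned as well, at 0.273% of members and 0.147% of rows with 1 symbol.

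Members above background on 1 array give a bound only. With values under background raised to it, 139 members were still at least 2-fold higher and 145 lower, and among members above background on both arrays the counts were 120 and 131. The median log2 difference, MHC class II KO minus WT, was -0.06 over members and 0.04 over rows with 1 symbol. Below 0 lay 57.2% of members and 42.3% of rows with 1 symbol. The robust SD of the difference was 0.37 over members and 0.25 over rows with 1 symbol, and members were wider in every range of mean signal but the brightest, above log2 13, where the values were 0.16 and 0.17. Log2 signals on the arrays had a Pearson correlation of 0.986 over members and 0.992 over rows with 1 symbol, as a description of these arrays.

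**Figure D1:**
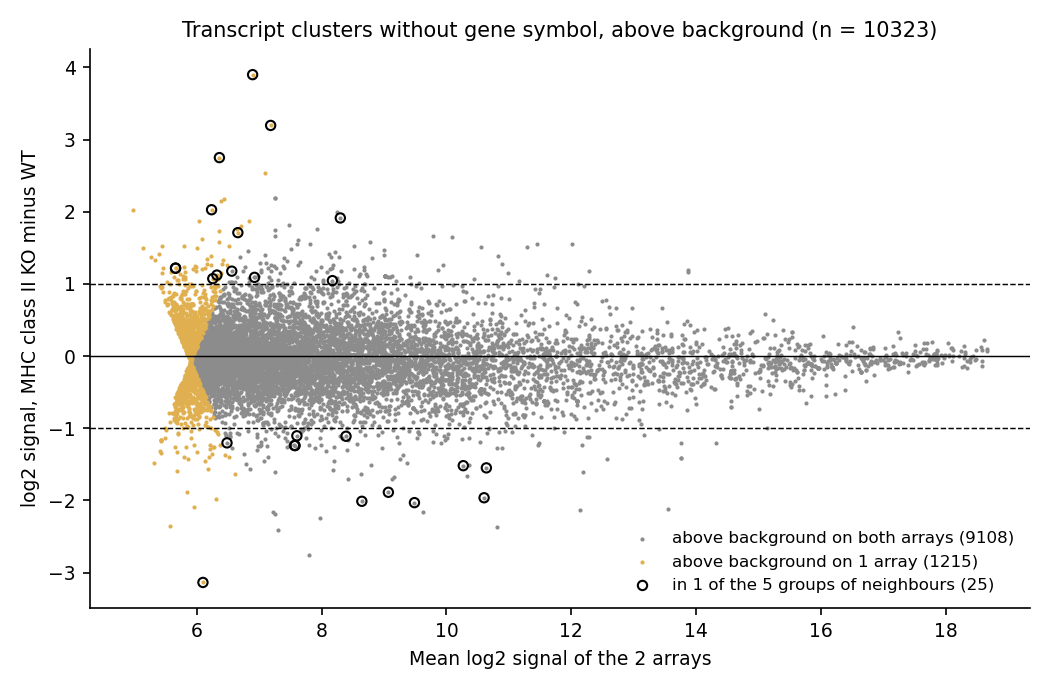
Difference of each of the 10323 members (vertical, log2 MHC class II KO minus WT) against its mean log2 signal; grey points are above background on both arrays, yellow points on 1 array, black rings the 25 members of the 5 groups of neighbours, and dashed lines mark 2-fold. The cloud is wide at low signal and narrows above log2 13, and the ringed members, plotted at their deposited values even where 1 array is below background, reach from -3.14 to 3.90.

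The chromosomes held between 281 members (chromosome 19) and 953 members (chromosome 2). On chromosome 14, 19 of 491 members were at least 2-fold higher and 4 lower, and 9 of the 19 belonged to a single group described below. On chromosome 18, 3 of 307 members were higher and 13 lower. Over all members, 1.75% were at least 2-fold higher and 1.69% lower. Chromosome 10 had the highest share past 2-fold, 5.73% of 541 members, with 17 higher and 14 lower, where 3.44% of all members passed. These counts include repeated values. TC1000001398.mm.1, at 352 and 762 (1.12), was 1 of 9 members with identical values on 2 chromosomes. TC1000001388.mm.1, at 64.3 and 28.7 (-1.16), was 1 of 2 with identical values on chromosome 10. Its MHC class II KO value lay below background, so it gives a bound only. All 71 members with no chromosome in their ID lay within 2-fold, with a median difference of -0.32.

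Neighbouring members at least 2-fold apart in one direction formed 5 groups of 3 or more, where each member lay at most 5 row numbers from the next. Of these, 2 were higher and 3 lower in the MHC class II KO sample. They held 25 members in all.

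The group on chromosome 14 was the largest. It held 9 members between TC1400002313.mm.1 and TC1400002324.mm.1, and all 9 were above background in the MHC class II KO sample and none in the WT sample. With the WT values raised to background, the median was at least 2.49-fold higher. TC1400002323.mm.1 had a signal of 30.8 in the WT sample and 460 in the MHC class II KO sample, at least 7.50-fold higher. TC1400002324.mm.1 had 48.0 and 440, at least 7.18-fold higher, TC1400002322.mm.1 had 31.7 and 214, at least 3.48-fold, and TC1400002315.mm.1 had 55.8 and 183, at least 2.98-fold. The remaining 5 members of the group had MHC class II KO signals from 77.2 to 153, and TC1400002313.mm.1 and TC1400002319.mm.1 had identical values on both arrays, so the group held 8 distinct measurements. Measured against background rather than against the WT value, 5 of the 9 were at least 2-fold higher.

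Genes around that group barely differed. Inside its span, rows of Synb, a retrovirus-derived envelope gene of the placenta, and of Gm16677 were below background on both arrays. So was a row without symbol in the span, TC1400002317.mm.1, at 37.2 in the WT sample and 36.4 in the MHC class II KO sample. The numbering before it held Slc25a37, the mitochondrial iron importer, at 417 and 453 (log2 difference 0.12), and the numbering after it R3hcc1 at 148 and 166 (0.17) and Chmp7, a membrane remodelling factor, at 330 and 376 (0.19). The step in the MHC class II KO sample thus lay between gene rows that differed by less than 0.2 on the log2 scale.

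The group on chromosome 9 lay beside Arpp21, which encodes an RNA-binding phosphoprotein abundant in immature thymocytes. The Arpp21 row was at 171 in the WT sample and 309 in the MHC class II KO sample, a log2 difference of 0.85. All 7 members among the 9 numbers that follow it were higher, by 0.77 to 1.91, and 4 of them reached 2-fold. TC0900003145.mm.1 had 162 and 612, and the brightest, TC0900003143.mm.1, had 2088 and 3989. The Mir128-2 row within this stretch, a microRNA gene hosted by Arpp21, was below background on both arrays. TC0900003139.mm.1 and TC0900003140.mm.1 started inside Arpp21 by the order of genes; whether the later ones are inside it or upstream is not given by the row number. Double positive thymocyte markers were higher on the same array (Aqp11 by 1.23, Cd8b1 by 1.38, and Dntt above background there alone), and their part in this group was not tested.

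On chromosome 10, 5 members were lower in a stretch of 67 rows that carry no symbol at all, between D10Wsu102e and Washc4. TC1000001001.mm.1 had 203 in the WT sample and 23.1, below background, in the MHC class II KO sample, at least 3.49-fold lower. TC1000001005.mm.1 had 2088 and 729 (-1.52) and TC1000000999.mm.1 had 1033 and 279 (-1.89). The other 4 members within the group's span lay between -0.93 and -0.08. The stretch held 37 members, of which 13 were lower by 1.5-fold or more and 4 higher by as much, with a median of -0.43, so its members did not move as one. TC1000000972.mm.1 in the same stretch, outside the group, had 549 and 116 (-2.24). Washc4, a subunit of the endosomal WASH complex, had 1532 and 1487 (-0.04), and D10Wsu102e differed by 0.17.

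The group on chromosome 13 followed Ell2, an elongation factor of RNA polymerase II whose upstream sequence is shown above. Ell2 itself had 1214 and 721, a log2 difference of -0.75. The 5 members directly after it were all lower, by -0.74 to -2.03. TC1300000915.mm.1 had 1450 and 355, and TC1300000913.mm.1 had 2726 and 932 (-1.55). The next gene, Glrx, had 113 and 99.3 (-0.19). The 4 members within 10 numbers before Ell2 lay between -0.62 and 0.43. The lowest of those 4, TC1300000906.mm.1, was 1 of 15 members on 11 chromosomes with identical values. Rows of Gm4149 and Gm23012 lay between those 4 members and Ell2.

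On chromosome 4, 3 members followed Osbpl9, which encodes an oxysterol-binding protein of the minus strand. Their signals were 803 and 199 for TC0400003261.mm.1 (-2.01), 3068 and 788 for TC0400003262.mm.1 (-1.96), and 493 and 229 for TC0400003263.mm.1 (-1.11). Osbpl9 had 1562 and 1305 (-0.26). These members were thus far lower than the gene they follow, while those at Arpp21 were near or above the difference of its gene row.

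**Figure D2:**
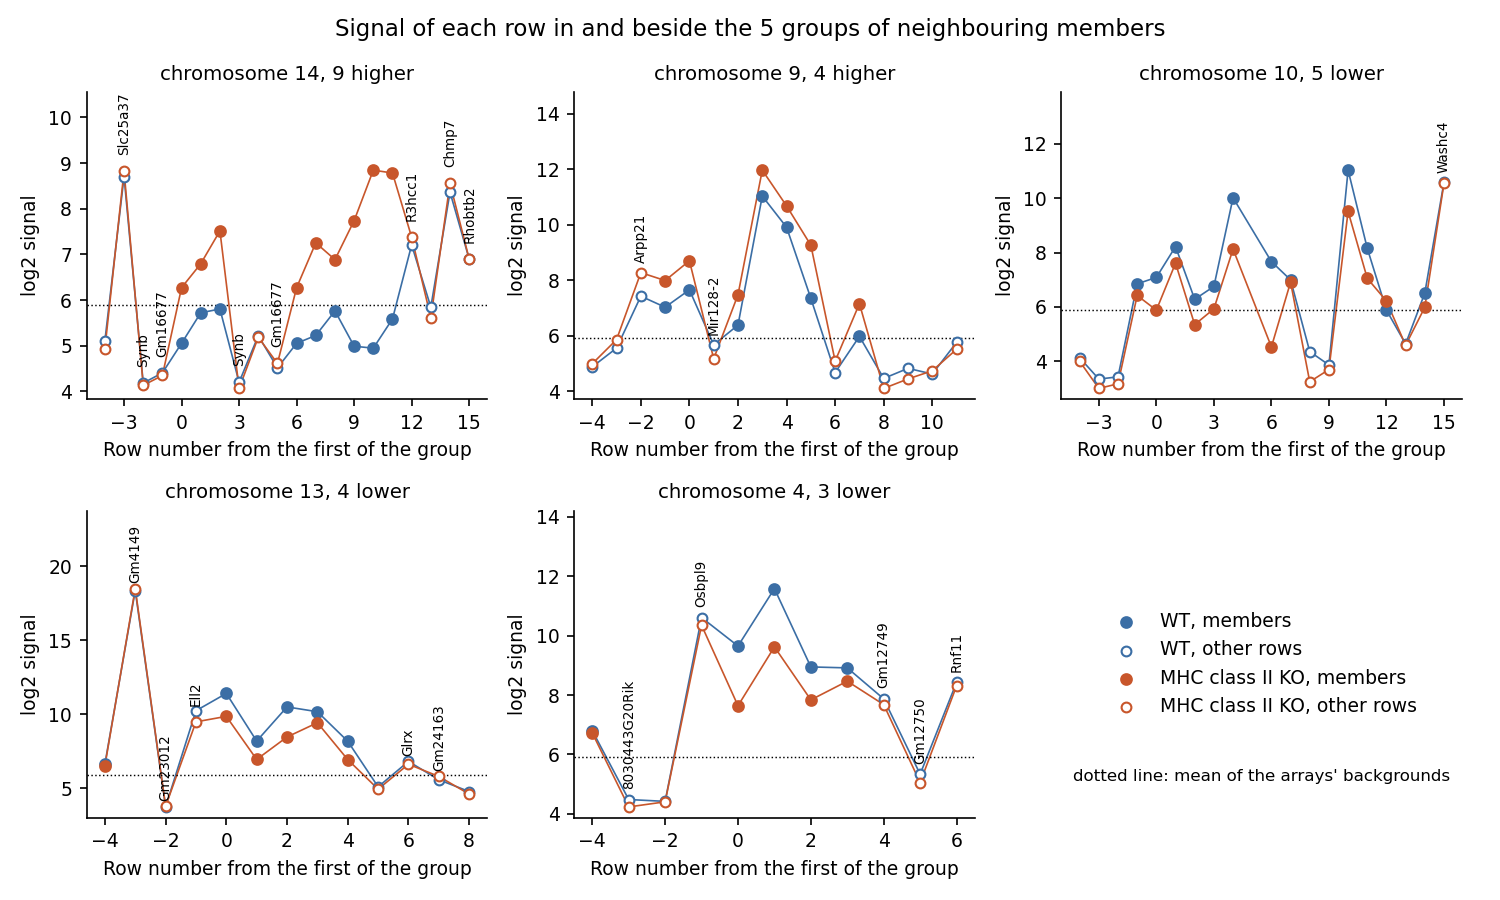
Log2 signal of each row (vertical) by its row number counted from the first member of each of the 5 groups (horizontal), WT in blue and MHC class II KO in orange; filled points are members, open points are other rows, gene rows carry their symbols, and the dotted line is the mean of the arrays' backgrounds. Among members, orange points lie above blue ones between Slc25a37 and R3hcc1 on chromosome 14 and after Arpp21. They lie below blue ones after Ell2 and Osbpl9. Open points in these stretches do not all follow: those of Synb and Mir128-2 have orange below blue.

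The largest single differences were next listed among members above background on both arrays. The lowest was TC1600001923.mm.1, which had 578 in the WT sample and 85.5 in the MHC class II KO sample, 6.76-fold lower. It directly followed Nrip1, a corepressor of nuclear receptors, which itself had 2260 and 1273 (-0.83). The next row, TC1600001924.mm.1, was far brighter at 24894 and 5708 (4.36-fold lower), and the row after it, of the ribosomal protein gene Fau, had 29125 and 27222 (-0.10).

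Several other low members also followed genes that were lower. TC0300001959.mm.1, with 4060 and 788 (-2.36), lay between Setd7, a lysine methyltransferase (1491 and 804, -0.89), and Maml3, a coactivator of Notch receptors (-0.64). TC1300001327.mm.1 had 9438 and 2148 (-2.14) and its neighbour TC1300001328.mm.1 had 4308 and 1879 (-1.20), both after Emb, the membrane glycoprotein embigin (-0.47). By contrast TC0600002023.mm.1, at 364 and 68.5 (-2.41), TC0800002370.mm.1, at 314 and 70.2 (-2.16), and TC1600001949.mm.1, at 326 and 71.7 (-2.18), lay beside gene rows that were near 0 or below background. Beside TC0800002370.mm.1, Zfp869 differed by -0.07 and Cilp2 was below background; beside TC1600001949.mm.1, the rows of Rps19-ps12 and Rpl21-ps5 differed by -0.10 and -0.08; beside TC0600002023.mm.1, both gene rows (Gm13848 and Plxna4) were below background. TC1700001227.mm.1 had 1674 and 376 (-2.15).

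The highest was TC0400003987.mm.1, with 71.3 in the WT sample and 326 in the MHC class II KO sample, 4.58-fold higher, in values that 2 members share. TC0500000412.mm.1 followed with 152 and 608, and TC0900003145.mm.1 of the Arpp21 group with 1.91. Next came TC0900002381.mm.1, at 95.2 and 335 (1.81), between the kinase gene Clk3 (0.32) and Arid3b (0.35). TC1500001298.mm.1 had 82.9 and 279 (1.75), TC0500001653.mm.1 had 493 and 1566 (1.67), and TC1000000155.mm.1 had 85.4 and 270.0 (1.66). In 2 further cases the gene just before was higher as well. TC0700003522.mm.1, at 132 and 449 (1.76), closed a run of 4 members after Slco3a1, an organic anion transporter (537 and 1102, 1.04), which differed by 0.02 to 1.76. TC1400002488.mm.1, at 610 and 1923 (1.66), directly followed Rgcc, a regulator of the cell cycle (1503 and 2386, 0.67). The last of the 12 were TC0200002408.mm.1 at 113 and 343 (1.61), TC1700002141.mm.1 at 254 and 761 (1.58) and TC0200001538.mm.1 at 114 and 334 (1.56).

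Members above background on 1 array alone added few larger bounds. After the chromosome 14 rows, the highest was TC1800000339.mm.1, at 56.5 and 329, at least 5.37-fold higher. After TC1000001001.mm.1, the lowest were TC1700000087.mm.1, at 174 and 55.8, at least 2.98-fold lower, and TC1100002371.mm.1, at 158 and 40.0, at least 2.72-fold lower.

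Members were then set beside the gene rows above background next to them. Over 9091 members within 5 row numbers of such a row, the difference of the member and of its nearest gene had a Pearson correlation of 0.17. The correlation was higher after a gene than before it at every distance from 1 to 5 row numbers. For a member numbered directly after a gene the correlation was 0.26 over 3091 pairs, and for one numbered directly before a gene it was 0.10 over 2318 pairs. All pairs share the same 2 arrays, and neighbouring rows may share transcripts or probes, so these are descriptions with no test.

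Splitting the pairs by strand separated the directions along the transcript. Directly upstream of a plus strand gene, the correlation was 0.02 over 1105 pairs, whereas directly downstream of a minus strand gene, at the same row offset, it was 0.19 over 1213 pairs. After a plus strand gene, inside or downstream of it, the value was 0.26 over 1628 pairs, and after a minus strand gene, inside or upstream of it, 0.27 over 1463 pairs. For comparison, consecutive rows with 1 symbol had 0.34 over 3628 pairs, and consecutive members with different values 0.38 over 2997 pairs, the highest of these correlations.

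**Figure D3:**
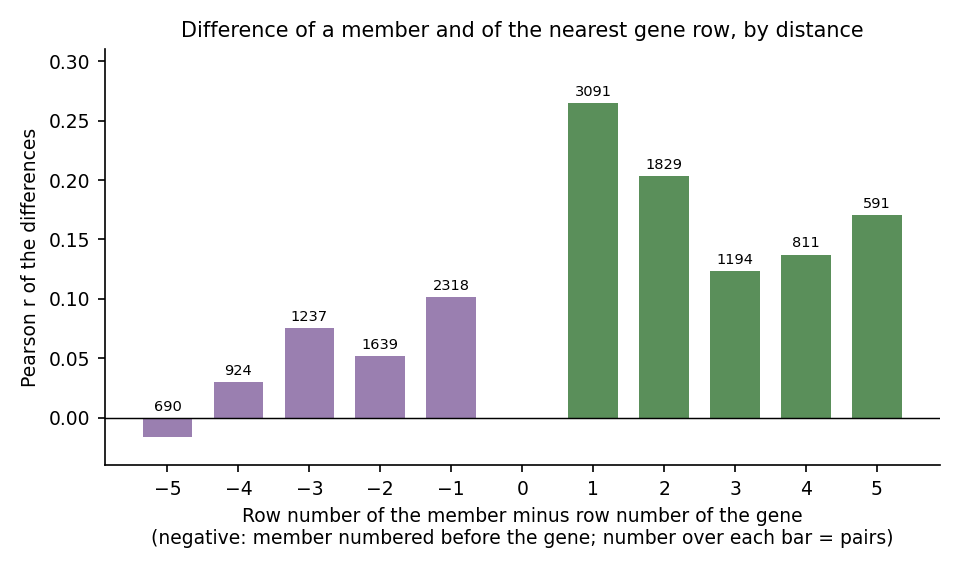
Pearson correlation (vertical) between the difference of a member and that of the nearest gene row above background on one side, by row number of the member minus that of the gene (horizontal); numbers over the bars are pairs. The bars fall from 0.26 at 1 number after the gene to between 0.12 and 0.20 further on, and lie between -0.02 and 0.10 before it.

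The same appeared at genes that differed most. Directly after 62 genes at least 1.5-fold lower, 19 members (30.6%) were at least 1.5-fold lower and 0 higher, where 8.69% of all members were lower. Directly after 115 genes at least 1.5-fold higher, 36 members (31.3%) were higher and 6 lower, where 7.24% of all members were higher. After 2914 genes within 1.5-fold the shares were 6.97% higher and 7.82% lower, close to those of all members. Directly before genes the shares were smaller, 12.8% lower at 47 lower genes and 14.4% higher at 90 higher genes.

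Few members could be placed inside a gene for certain. The starts of 306 members were bracketed by a gene and the next gene start within it, 3.01% of the members in a strand run, and 262 of these lay in 129 genes above background. Their difference and that of the gene had a correlation of 0.22. Fut8, which adds core fucose to glycoproteins, had 3 such members, all higher: TC1200000690.mm.1 at 34.3 and 126, TC1200000691.mm.1 at 209 and 442 (1.08), and TC1200000689.mm.1 at 112 and 180 (0.68), while Fut8 had 338 and 394 (0.22). Celf2, a regulator of splicing, had 8 that went both ways, including TC0200002900.mm.1 at 2809 and 1363 (-1.04) and TC0200002898.mm.1 at 490 and 981, with the gene at 0.09. Sfmbt2, a Polycomb gene that hosts a large microRNA cluster, held the most, 22, with a median of -0.13 beside -0.15 for the gene. The Sfmbt2 row was near background, at 63.5 in the WT sample and 57.1, below background, in the MHC class II KO sample. Several of the 22 members had identical values, so they gave fewer distinct measurements.

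Loci of genes that matter in γδ T cells were examined by taking members within 10 row numbers of a listed gene. The lists together reached 341 members. Around IL-17 cytokines and regulators of the IL-17 lineage, 8 of 44 members were at least 1.5-fold higher and 7 lower, with a median of -0.06. Around activation and checkpoint genes, 8 of 75 were higher and 9 lower (median -0.08). Around early T lineage transcription factors the counts were 8 and 12 of 85 (median -0.09). In each of these 3 lists the shares were above the 7.24% and 8.69% of all members, in both directions.

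Maf, which drives the IL-17 program of γδ T cells, had 36081 and 36800 (0.03). Members numbered before it, downstream on the minus strand, varied. The one directly before it, TC0800002991.mm.1, had 76.7 and 86.9 (0.18). TC0800002990.mm.1 had 1025 and 321 (-1.68), and TC0800002985.mm.1 had 783 and 1555 (0.99). TC0800002989.mm.1 had 83.6 and TC0800002988.mm.1 had 90.3 in the WT sample, with values below background, 51.6 and 34.3, in the MHC class II KO sample. Directly after Maf, TC0800002993.mm.1 had 523 and 713 (0.45). Near Ccr6, the receptor that guides these cells (203 and 556, 1.46), TC1700000086.mm.1 went the other way at 185 and 65.9 (-1.49), as did the neighbouring TC1700000087.mm.1. The gene row directly before these members was not Ccr6 but Mpc1, a mitochondrial pyruvate carrier subunit, at 221 and 214 (-0.05).

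Lef1, a transcription factor of early T cells that acts with TCF1, had 3786 and 2668 (-0.51). The 5 members directly after it were all lower and by more: TC0300001331.mm.1 by -0.78, then -0.80, -0.97 and -1.50, to TC0300001335.mm.1 at 2290 and 724 (-1.66). The 3 members before it lay between -0.04 and 0.43. Bcl11b, which commits cells to the T lineage and whose upstream sequence is shown above, had 3998 and 6297 (0.66). The 4 members after it were higher by 0.69 to 1.22, 2 of them above background in the MHC class II KO sample alone, with TC1200002343.mm.1 at 189 and 440, and the 3 before it lay between -0.01 and 0.17.

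Ctla4, an inhibitory receptor, had 2487 and 226 (-3.46), and the row before it, TC0100000484.mm.1, had 77.7 and 32.6, below background in the MHC class II KO sample. The other member named around activation genes, TC0100002845.mm.1, had 276 and 118 (-1.23) and directly followed St8sia4, a sialyltransferase (-0.40).

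Around αβ receptor and double positive thymocyte genes, 4 of 37 members were at least 1.5-fold higher and none lower, with a median of -0.04, where 7.24% of all members and 5.43 percent of all rows were higher and 8.69% and 5.53 percent lower. Themis, which tunes receptor signalling in thymocytes, had 362 and 605 (0.74). Among its following members TC1000000256.mm.1 had 187 and 359 (0.94) and TC1000000259.mm.1 had 238 and 458 (0.95), while TC1000000255.mm.1, TC1000000257.mm.1 and TC1000000258.mm.1 lay between -0.14 and 0.12 and the 2 directly after the gene had 0.38 and 0.64. The double positive markers given above were higher on the same array, and their part here was not tested.

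Around the γδ receptor loci, 3 of 11 members were at least 1.5-fold higher and none lower, with a median of 0.26, a count of members too small to set against the 7.24% and 8.69% of all members. TC1400000722.mm.1, at 1029 and 1802 (0.81), lay next to a Tcra joining segment in the shared Tcra and Tcrd locus. TC1300000128.mm.1, at 91.4 and 148 (0.69), was within 10 row numbers of Tcrg-V7. The gene rows on either side of it were Gm18859 and Vps41. None of 5 members around MHC genes passed 1.5-fold; TC1700000606.mm.1 had the largest difference (0.34), followed by TC1700001900.mm.1 (-0.16).

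Clustered lymphocyte families had 5 of 29 members at least 1.5-fold higher and 4 lower, where 7.24% and 8.69% of all members were. TC1500001728.mm.1, directly before Ly6c1 (216 and 221, 0.03), had 216 and 623 (1.53), and TC1100001249.mm.1 had 111 and 275 (1.31). Around non-coding, imprinted and small RNA host genes, 1 of 27 was higher and none lower, with a median of 0.25. TC1400001988.mm.1, after the RNase P RNA gene Rpph1, had 130 and 196 (0.59). The 8 members inside Airn, the long non-coding RNA that silences Igf2r in cis, had a median of 0.35, with TC1700000131.mm.1 at 96.6 and 142 (0.56), beside -0.15 for Airn. None of 6 members around histone clusters passed 1.5-fold (TC0300000924.mm.1 at -0.26 and TC0300000933.mm.1 at 0.21 the farthest), and 2 of 24 around other genes with large differences were higher and 1 lower, namely TC0700000380.mm.1 at 187 and 98.9 (-0.92).

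**Figure D4:**
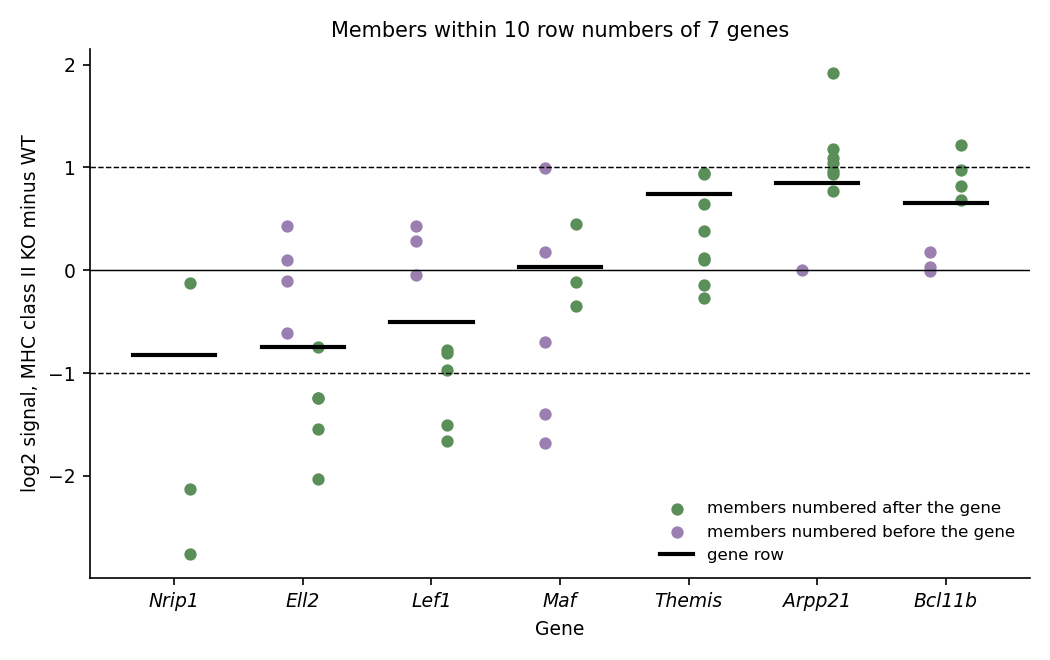
Log2 difference, MHC class II KO minus WT (vertical), of 7 gene rows (black bars) and of the members within 10 row numbers of each, numbered after the gene in green and before it in purple; dashed lines mark 2-fold. Members after Ell2 and Lef1 lie lower than those before them, members after Bcl11b lie higher, and those around Maf spread on both sides of 0 while the gene is at 0.03.

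Some members repeat each other. In 99 sets, 2 or more members had identical values on both arrays, and these sets held 524 members (5.08%), so the members gave 9898 distinct pairs of values. The largest set had 61 members on 16 chromosomes at 1613 and 1207 (-0.42), and others had 32 members (0.05), 30 members (-0.45) and 26 members (-0.10). Of 14 sets of 10 or more, 10 were below 0, a count of sets too small to set against the 57.2% of all members below 0. The median over members in sets, which counts a shared value once per member, was -0.24. It was -0.05 over the 9799 members outside them. Counted once each, 171 members were at least 2-fold higher and 172 lower.

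In 11 cases a member shared both values with a row that has a symbol. Among them, TC1200000429.mm.1 matched 48 rows of small nuclear RNA genes at 7456 and 7542, TC0900002769.mm.1 matched 4, and TC0200000168.mm.1 matched 5 rows of Mir466b copies at 93.4 and 88.0. The differences of these 3 lay between -0.09 and 0.02.

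**Figure D5:**
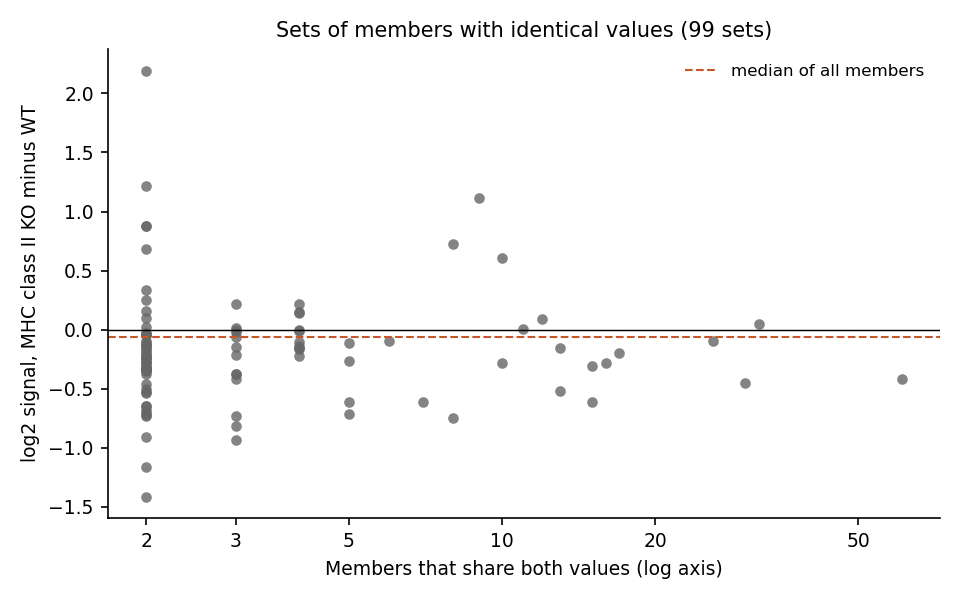
Log2 difference, MHC class II KO minus WT (vertical), of each of the 99 sets of members with identical values, against the number of members in the set (horizontal, log axis); the dashed line is the median of all members. The set of 61 lies at -0.42, and 10 of 14 sets of 10 or more lie below 0, as do 57.2% of all members.

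The mitochondrial genome held 19 members, from log2 7.78 to 16.28 in the WT sample. Of these 13 were lower in the MHC class II KO sample, 4 of them by at least 1.5-fold, and 1 was higher by that fold, with a median of -0.18. Over all members, 57.2% were below 0, 8.69% were at least 1.5-fold lower and 7.24% higher, with a median of -0.06. The 19 members are too few to set against those shares. The 11 mitochondrial rows with a symbol had a median of -0.01 and none passed 1.5-fold. None of the 19 members reached 2-fold, which 3.44% of all members passed.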

How the data were processed

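Total RNA of 1 WT and 1 MHC class II KO sample was extracted with TRIzol and labelled with biotin after amplification, per the labels' protocols. The authors deposited linear intensity values, 1 per transcript cluster; RMA and Affymetrix Expression Console 1.4.1 are named per the submitters' processing notes, and neither the RMA variant nor the build of the rows is stated in the sources used here. Above the 16-bit ceiling of 65535 lay 284 members in the WT sample and 260 in the MHC class II KO sample, so that an unstated step changed the scale and could have widened or narrowed folds. On each array, background was taken at the 95th percentile over 1228 rows of olfactory receptors. Values were compared as log2, MHC class II KO minus WT, with Python 3 (numpy, pandas, scipy), and the steps were tested on simulated data. Symbols came from the platform table, updated through RefSeq GRCm38.p6 gene identifiers for 22815 rows; that table also gave gene order. With 1 array per genotype no test was possible, and the number of arrays limits the precision. Members and gene lists were chosen with earlier results of these data known. Named members are the 12 highest and 12 lowest above background on both arrays, 3 bounds each way, the 5 brightest, 2 per gene list, all groups and the threshold edges; members beside a described gene (Lef1, Bcl11b, Maf, Emb, Slco3a1 and Arpp21 neighbours) and inside Fut8 and Celf2 or sharing values with symbol rows were added after their values were seen.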

Additional observations from a re-analysis of the deposited data

How the results depend on the processing

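No paired analysis was possible because each genotype had 1 array. Of 71 members named by rule, the threshold edges aside, all kept their sign under centring, quantile normalization, loess and a floor at background. Of 55 that were at least 2-fold apart, all stayed so under the first 3 and 50 with the floor. Other named members, among them those added after their values were seen, were not counted here. The median of members was -0.072 after centring on all rows above background, -0.053 after quantile normalization and -0.078 with the 99th percentile of olfactory receptor rows as background, and it was below 0 in every setting tried. The share at least 2-fold apart, 3.44% as reported, was 2.75% with values raised to background, 4.12% with the 99th percentile, 2.76% above background on both arrays and 1.32% with no background filter. At 1.5-fold, 747 members were higher and 897 lower (15.9%), and at 3-fold 26 and 27 (0.513%, or 0.525% with identical rows counted once, a setting chosen after seeing the data). Above background on both arrays, 120 were at least 2-fold higher. The count of groups ran from 4 (largest step 2) to 6 (largest step 10). Alternatives for neighbours and listed loci were chosen after seeing the data: the correlation with the gene directly before stayed between 0.26 and 0.27, and 58 to 74 of the members around listed genes were at least 1.5-fold apart, 71 as reported. Signal near background limits the 1215 members above it on 1 array.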
